A study of Mus musculus with 12 samples.

Results

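The genes described here are 10 acute phase reactants, which are plasma proteins that the liver makes in larger amounts during inflammation. They are the orosomucoids *Orm1*, *Orm2* and *Orm3*, the serum amyloid A genes *Saa1*, *Saa2*, *Saa3* and *Saa4*, lipocalin-2 (*Lcn2*), haptoglobin (*Hp*) and hemopexin (*Hpx*). They were taken by symbol from a table of 47069 mouse genes, in which each of the 10 symbols occurs once, and all 10 were among the 17386 genes tested. The samples were 12 RNA-seq libraries of mice at postnatal day 14, of which 6 were made from isolated hepatocytes and 6 from whole liver, each with 3 of WT and 3 of *Cdk1* Liv-/- animals. *Cdk1* Liv-/- mice carried *Cdk1* flox/flox alleles and Albumin-Cre, a recombinase transgene that is active in hepatocytes and, earlier, in their embryonic precursors, the hepatoblasts, which also give rise to bile duct cells. Liver cells of other lineages keep *Cdk1*. CDK1 is the kinase that drives entry into mitosis. The WT mice are labelled wild type without further detail of their alleles. The study's methods describe its experiments in general as done with biological replicates. The labels number the 3 libraries of a group without naming the animals, and p-values measure the spread between these libraries. The question put to the data was how the RNA of each of these genes differed between the genotypes in hepatocytes and in whole liver.

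The acute phase response is the change in hepatocyte secretion that follows infection, injury or sterile inflammation. Interleukin-6 and related cytokines act through gp130 and STAT3, and interleukin-1 and tumor necrosis factor act through NF-kappaB, often together with C/EBP transcription factors. Orosomucoids carry lipophilic compounds and modulate immune cells, serum amyloids A1 and A2 travel on high density lipoprotein, lipocalin-2 binds the siderophores with which bacteria collect iron, haptoglobin captures free hemoglobin and hemopexin captures free heme. *Saa4* is known as the constitutive member of its family, and *Saa3* is also made by macrophages.

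In GRCm38 (GENCODE M21) the 3 orosomucoid genes lie on the plus strand of chromosome 4 within 21319 bp, in the order *Orm1* (chr4:63344560-63348163), *Orm3* (chr4:63356162-63359511) and *Orm2* (chr4:63362449-63365878). The 4 serum amyloid genes lie within 42316 bp of chromosome 7, in the order *Saa3* (chr7:46711998-46715700), *Saa4* (chr7:46727998-46732603), *Saa1* (chr7:46740497-46742980) and *Saa2* (chr7:46751790-46754313), of which only *Saa2* is on the plus strand. *Hpx* is on the same chromosome at chr7:105591613-105600137, *Lcn2* is at chr2:32384633-32388252 and *Hp* at chr8:109575128-109579172, all on the minus strand.

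Neighbours within these clusters have similar sequences, which matters because each read covered 75 bases. The coding sequences of *Orm1* and *Orm2* were 89.9% identical, those of *Orm1* and *Orm3* 86.0%, those of *Orm2* and *Orm3* 87.9% and those of *Saa1* and *Saa2* 95.1%. Of all windows of 75 bases in 1 transcript per gene, 13.8% in *Orm1*, 14% in *Orm2*, 0.1% in *Orm3* and 4.7% in each of *Saa1* and *Saa2* also occurred in another of the annotated transcripts, and none did in the other 5 members. The other windows differ at 1 base or more between the copies. To show how far the copies can be told apart, the stretch of 75 coding bases with the most differences is given here, at coding bases 141 to 215 of *Orm1* and at 75 to 149 of *Saa1*. Capitals mark the bases that differ within the family, which are 28 of 75 among the orosomucoids and 10 of 75 between *Saa1* and *Saa2*.
Orm1: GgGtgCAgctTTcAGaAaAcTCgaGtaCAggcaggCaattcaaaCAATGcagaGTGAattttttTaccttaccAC
Orm2: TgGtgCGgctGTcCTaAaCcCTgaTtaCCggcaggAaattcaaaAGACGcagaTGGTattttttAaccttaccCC
Orm3: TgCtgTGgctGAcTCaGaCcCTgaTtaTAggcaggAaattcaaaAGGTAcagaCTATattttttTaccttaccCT
Saa1: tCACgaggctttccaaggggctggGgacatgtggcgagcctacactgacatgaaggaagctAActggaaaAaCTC
Saa2: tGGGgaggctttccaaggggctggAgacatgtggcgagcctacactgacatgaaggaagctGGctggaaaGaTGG

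The promoters are shown because *Orm2* and *Orm3*, and likewise *Saa1* and *Saa2*, were higher together in *Cdk1* Liv-/- in the results that follow, whereas *Saa4* of the same cluster was called in neither compartment. RefSeq windows of the 250 bases before the RefSeq start (GRCm38.p6) were found for 8 of the 10 members, and not for *Orm1* and *Hp*. RefSeq starts can differ from the GENCODE M21 starts given above. The windows of *Lcn2*, *Saa2*, *Saa3* and *Hpx* overlap the GENCODE M21 spans of these genes, that of *Lcn2* wholly. The windows of *Orm2* and *Orm3* were 85.5% identical and those of *Saa1* and *Saa2* 94.8%. Bases -150 to -51 are printed for *Orm2* (chr4:63362299-63362398, plus strand) and *Orm3* (chr4:63356008-63356107, plus strand), and bases -200 to -71 for *Saa1* (chr7:46743051-46743180, minus strand) and *Saa2* (chr7:46751633-46751762, plus strand). Capitals mark matches to the C/EBP letters TTGCNCAA or TTNNGNAAT and to the NF-kappaB letters GGNNN followed by TTTCC on either strand.
Orm2: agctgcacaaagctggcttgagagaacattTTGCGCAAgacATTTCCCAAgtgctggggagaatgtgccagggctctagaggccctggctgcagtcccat
Orm3: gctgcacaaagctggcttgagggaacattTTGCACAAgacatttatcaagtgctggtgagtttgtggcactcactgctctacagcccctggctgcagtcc
Saa1: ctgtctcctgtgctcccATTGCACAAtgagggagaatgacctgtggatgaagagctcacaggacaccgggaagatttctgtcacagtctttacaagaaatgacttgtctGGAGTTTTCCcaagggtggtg
Saa2: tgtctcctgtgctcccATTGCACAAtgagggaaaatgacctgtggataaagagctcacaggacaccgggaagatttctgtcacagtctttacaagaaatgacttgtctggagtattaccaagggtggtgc

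The C/EBP letters TTGCNCAA occurred on either strand in 6 of the 8 windows (*Orm2*, *Orm3*, *Saa1*, *Saa2*, *Saa4* and *Lcn2*). They occurred in 2.6% of all 32851 promoter windows of the same length. The form TTNNGNAAT occurred in 3 of 8 (*Orm2*, *Saa1* and *Saa2*) against 10.2% of all windows, and in *Saa1* and *Saa2* it overlaps the TTGCNCAA match. The NF-kappaB letters GGNNN followed by TTTCC occurred in 1 of 8, *Saa1*, against 4.6%, and the nearest run in *Saa2*, at bases -92 to -83, differs from that of *Saa1* at 2 of 10 bases. The STAT letters TTCNNNGAA occurred in 0 of 8 against 7.0%, and TATAAA in 2 of 8 (*Orm2* and *Orm3*) against 12.4%. The letters were chosen after the sequences had been seen, the members of a cluster are copies and not independent, and a match is a description of letters, not of binding.

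Values are FPKM, read numbers scaled to transcript length and library size, which can be compared between genes because they are per length. The depth was estimated from the steps between low values, and 1 FPKM on 1 kb of transcript stood for 34.7 to 49.9 reads over the 12 libraries. Of the targeted gene, *Cdk1* was at 20.4 to 28.2 FPKM in the 6 WT libraries and at 6.87 to 14.2 FPKM in the 6 *Cdk1* Liv-/- libraries, with no overlap (log2 fold change -1.40 in hepatocytes and -0.85 in whole liver, adjusted p = 0.0148 and 0.00353 from limma). This is a value for the whole gene, of which the deleted exon is a part. The 11 hepatocyte markers, of which *Alb* is the most abundant, were above 0 in all 12 libraries. They summed to 84387 to 93104 FPKM in WT hepatocytes and 85340 to 88198 in WT whole liver, and were lower in *Cdk1* Liv-/-, at 56942 to 60251 and 60915 to 68015 FPKM. This sum does not tell isolated hepatocytes from whole liver, and the hepatocyte libraries also held markers of other cells. Their values are given beside some of the results and in a later paragraph of their own. Replicate 3 of *Cdk1* Liv-/- whole liver was the only library with *Xist* above 0.14 FPKM, at 158 FPKM, and without Y-linked RNA. Its RNA was thus that of a female, and that of the other libraries male. The labels do not give the sex, and the study's methods state that its experiments used male mice alone. The reason for this difference was not tested.

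**Figure D1:**
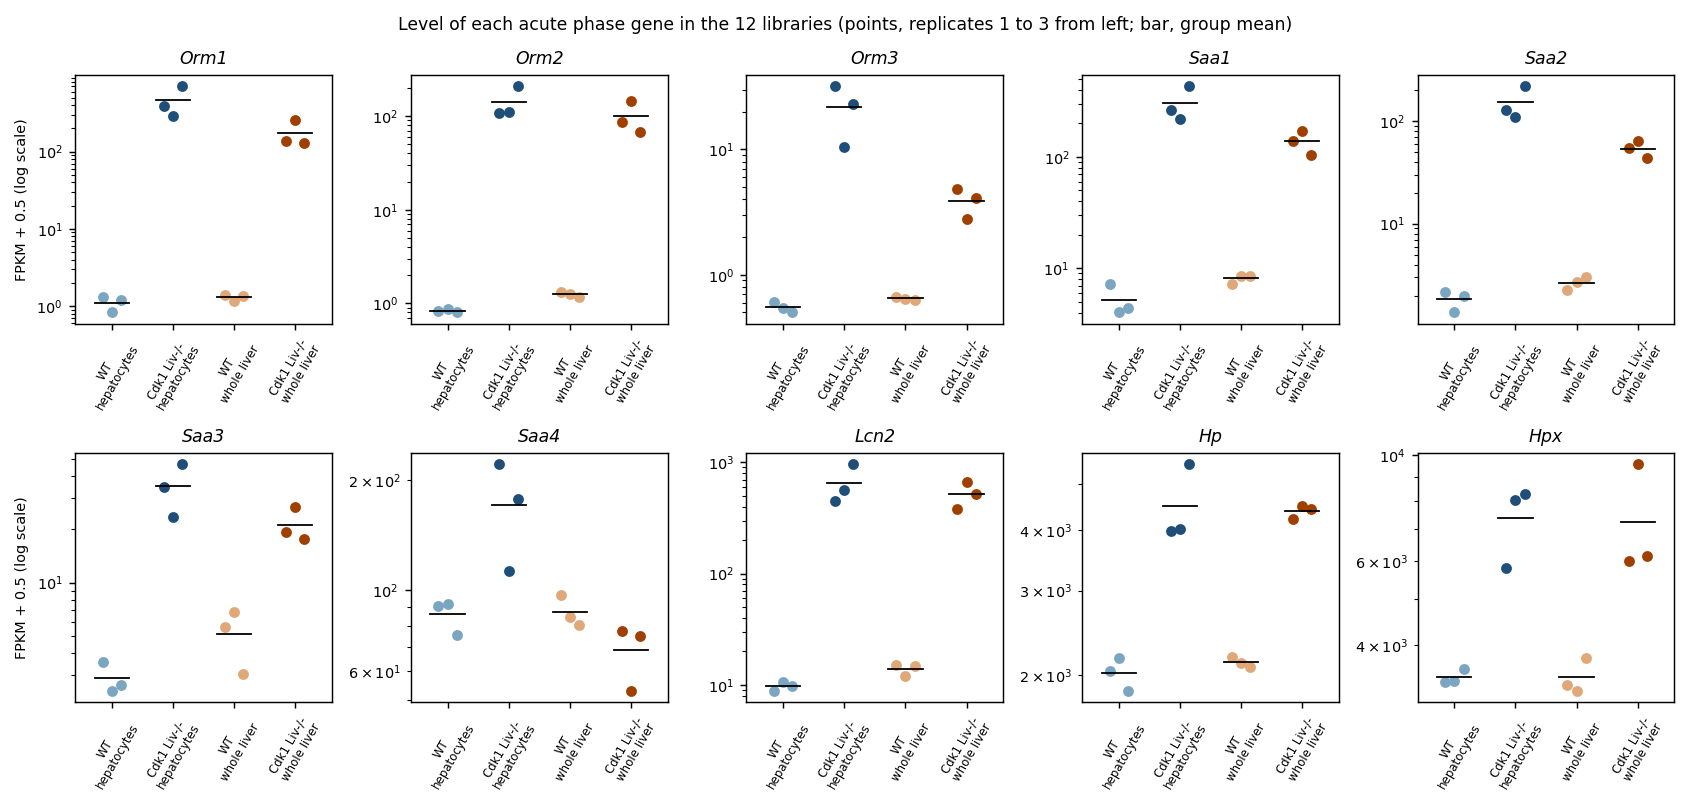
FPKM + 0.5 on a log axis for the 10 acute phase genes (panels) in the 12 libraries, with 3 points per group and a bar at the group mean. The *Cdk1* Liv-/- hepatocytes lie above the WT hepatocytes in each panel, and the *Cdk1* Liv-/- whole liver lies above WT whole liver in each panel but that of *Saa4*.

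In WT animals the 10 genes fell into separate ranges of level. *Hpx* was the most abundant, at 3430 ± 119 FPKM in hepatocytes and 3424 ± 291 in whole liver (SD, n = 3 in each group throughout), and *Hp* followed at 2021 ± 156 and 2129 ± 54.7 FPKM. *Saa4* was at 85.3 ± 9.01 and 86.8 ± 8.62 FPKM. *Lcn2* was at 9.26 ± 0.875 and 13.5 ± 1.62 FPKM. *Saa1* was at 4.70 ± 1.73 and 7.62 ± 0.731 FPKM, *Saa3* at 2.36 ± 0.588 and 4.63 ± 1.92 and *Saa2* at 1.34 ± 0.414 and 2.17 ± 0.375. The orosomucoids were lowest, with *Orm1* at 0.613 ± 0.251 and 0.817 ± 0.119 FPKM, *Orm2* at 0.333 ± 0.0351 and 0.747 ± 0.0751 and *Orm3* at 0.05 ± 0.0557 and 0.147 ± 0.0208. Among neighbours in this order, *Saa3* overlapped *Saa2* in whole liver, and *Orm1* overlapped *Orm2* in both compartments. In *Cdk1* Liv-/- hepatocytes *Lcn2* (657 ± 270 FPKM), *Orm1* (465 ± 219) and *Saa1* (304 ± 113) stood next after *Hpx* and *Hp*, ahead of *Saa4* (170 ± 54.4), and the libraries of these neighbours overlapped from *Lcn2* down to *Saa4*. The 10 genes together took 0.800% to 0.838% of all FPKM in WT hepatocytes and 1.63% to 2.52% in *Cdk1* Liv-/- hepatocytes, against 0.783% to 0.856% and 1.65% to 2.29% in whole liver. *Hp* and *Hpx* made up most of this, and the other 8 genes rose from 0.0135% to 0.0169% of all FPKM in WT hepatocytes to 0.221% to 0.423% in *Cdk1* Liv-/- hepatocytes.

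In isolated hepatocytes, 9 of the 10 genes were called higher in *Cdk1* Liv-/- than in WT, that is, they passed an adjusted p of 0.1 in limma and a log2 fold change of 1. Of all genes tested, 4.20% were called higher. *Saa4* passed the adjusted p but not the fold. The libraries of the genotypes did not overlap for any of the 10 genes, which held for 20.6% of all genes in the direction of higher in *Cdk1* Liv-/-. The median log2 fold change of the 10 genes was 5.52 and that of all genes 0.05. *Orm1* and *Orm2* had the 2 largest log2 fold changes of the 17386 genes tested, *Saa2* the 6th, *Lcn2* the 8th, *Saa1* the 9th and *Orm3* the 12th.

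Among the orosomucoids, *Orm1* was at 0.81, 0.33 and 0.70 FPKM in WT hepatocytes and at 394, 291 and 711 FPKM in *Cdk1* Liv-/- hepatocytes. Its mean was 758-fold higher, with a log2 fold change of 8.63 on the log2(FPKM + 0.5) scale that is used throughout (standard error 0.35, adjusted p = 0.000409 from limma). *Orm2* was at 0.33, 0.37 and 0.30 FPKM in WT and at 108, 109 and 210 FPKM in *Cdk1* Liv-/-, which gave a log2 fold change of 7.35 with a standard error of 0.27 (adjusted p = 0.000409). Both genes were near the limit of detection in WT, where *Orm1* rested on an estimated 8.9 to 28.3 reads per library and *Orm2* on 9.9 to 11.5. *Orm3* was at 0.11, 0.04 and 0.00 FPKM in WT, or an estimated 3.8, 1.1 and 0 reads, and at 31.6, 10 and 22.7 FPKM in *Cdk1* Liv-/-, or 276 to 894 reads. The fitted log2 change of *Orm3* was 5.18 (standard error 0.41, adjusted p = 0.00196). This value depends on the constant added, being 7.08 with 0.1 and 4.28 with 1, and is not a bound on the fold. For *Orm1* these values were 9.32 and 8.09, and for *Orm2* 8.29 and 6.68. With the 3 genes summed, which removes any effect of how shared reads were divided, the log2 fold change was 8.64 (adjusted p = 0.000449).

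Among the serum amyloids, *Saa1* was at 6.69, 3.51 and 3.90 FPKM in WT hepatocytes and at 261, 219 and 432 FPKM in *Cdk1* Liv-/- hepatocytes, 64.7-fold higher by the means (log2 fold change 5.86, standard error 0.32, adjusted p = 0.000786). *Saa2* was at 1.65, 0.87 and 1.5 FPKM in WT and at 128, 109 and 218 FPKM in *Cdk1* Liv-/-, 113-fold higher (6.33, standard error 0.30, adjusted p = 0.000499). Their sum gave a log2 fold change of 6.11 (adjusted p = 0.000648). *Saa3* was at 3.03, 1.93 and 2.12 FPKM in WT and at 34.2, 23.1 and 46.5 FPKM in *Cdk1* Liv-/-, 14.7-fold higher (3.58, standard error 0.28, adjusted p = 0.00194). *Saa4*, the constitutive member, was at 89.9, 91.1 and 74.9 FPKM in WT and at 221, 113 and 177 FPKM in *Cdk1* Liv-/-. Its mean was 2.00-fold higher, with the log2 fold change of 0.94 short of the threshold of 1 (standard error 0.25, adjusted p = 0.0622), and without replicate 2 of the *Cdk1* Liv-/- hepatocytes, its lowest, it was called at 1.21.

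*Lcn2* was at 8.37, 10.1 and 9.28 FPKM in WT hepatocytes and at 450, 559 and 963 FPKM in *Cdk1* Liv-/- hepatocytes, 71.0-fold higher (log2 fold change 6.0, standard error 0.27, adjusted p = 0.000492). Lipocalin-2 is also a protein of neutrophil granules. The part of neutrophils in the *Lcn2* values of hepatocytes was not tested. The 11 neutrophil markers summed to 15.3, 12.6 and 53.3 FPKM in replicates 1 to 3 of WT hepatocytes. In those of *Cdk1* Liv-/- hepatocytes they summed to 22.0, 10.4 and 21.1 FPKM. Replicate 3 alone set the upper end in WT. Of the 11 markers, 0 passed as higher in *Cdk1* Liv-/- hepatocytes in limma, 0 had an unadjusted p under 0.05 and 0 passed in a two-sample test with q-values. *Ly6g*, which defines neutrophils in the mouse, was at 0.09 FPKM or less in the *Cdk1* Liv-/- hepatocyte libraries, of which 2 were listed at 0, and at 0.05 FPKM or less in WT hepatocytes, of which 1 was listed at 0.

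The carriers of hemoglobin and heme started high and changed little by comparison. *Hp* was at 2040, 2167 and 1857 FPKM in WT hepatocytes and at 3979, 4035 and 5490 FPKM in *Cdk1* Liv-/- hepatocytes, 2.23-fold higher (log2 fold change 1.14, standard error 0.18, adjusted p = 0.0139). *Hpx* was at 3353, 3370 and 3566 FPKM in WT and at 5805, 8070 and 8278 FPKM in *Cdk1* Liv-/-, 2.15-fold higher (1.09, standard error 0.19, adjusted p = 0.0213). Both lay just above the threshold of 1 and both lost their call without replicate 3 of the *Cdk1* Liv-/- hepatocytes, at 0.99 and just under 1.00, which leaves 7 genes called. Without the filter on low values the adjusted p of *Hpx* was 0.112.

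In whole liver, 9 of the 10 genes were again called higher in *Cdk1* Liv-/-, against 4.59% of all genes tested. The genes were the same 9 as in hepatocytes, and *Saa4* had the opposite sign. Libraries of the genotypes did not overlap for these 9 genes, but 43.2% of all genes did not overlap in this direction in whole liver. The median log2 fold change of the 10 genes was 3.31, and that of all genes 0.18. Dividing the values by median-ratio size factors moved the median of all genes to 0.01 and took *Hp* and *Hpx* below the fold threshold, leaving 7 genes called. Of all 17386 genes, 6610 passed the adjusted p as higher and 1310 as lower without this scaling, and 3107 and 2844 with it. The shares of all genes given for whole liver are those without scaling.

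*Orm1* was at 0.90, 0.68 and 0.87 FPKM in WT whole liver and at 135, 259 and 130 FPKM in *Cdk1* Liv-/- whole liver, whose log2 fold change was 6.98 with a standard error of 0.28 (adjusted p = 0.000167). *Orm2* was at 0.82, 0.75 and 0.67 FPKM in WT and at 85.7, 146 and 68.0 FPKM in *Cdk1* Liv-/- (6.26, standard error 0.27, adjusted p = 0.000228). They ranked 2nd and 3rd of all genes tested. *Orm3* was at 0.17, 0.14 and 0.13 FPKM in WT, or an estimated 3.9 to 4.9 reads, and at 4.30, 2.29 and 3.62 FPKM in *Cdk1* Liv-/- (2.56, standard error 0.20, adjusted p = 0.00118). The sum of the 3 gave 6.91 (adjusted p = 0.000164).

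*Saa1* was at 6.78, 8.02 and 8.07 FPKM in WT whole liver and at 139, 169 and 103 FPKM in *Cdk1* Liv-/- whole liver (log2 fold change 4.06, standard error 0.19, adjusted p = 0.000234). *Saa2* was at 1.79, 2.19 and 2.54 FPKM in WT and at 53.6, 63.4 and 42.8 FPKM in *Cdk1* Liv-/- (4.32, standard error 0.17, adjusted p = 0.000167). *Saa3* was at 5.09, 6.28 and 2.52 FPKM in WT and at 19.0, 26.3 and 17.2 FPKM in *Cdk1* Liv-/- (2.11, standard error 0.33, adjusted p = 0.00782). All 3 were higher in each *Cdk1* Liv-/- library than in any WT library. *Saa4* was at 96.5, 84.0 and 80.0 FPKM in WT and at 77.0, 52.5 and 74.6 FPKM in *Cdk1* Liv-/-. It was lower in 3 of 3 libraries and did not pass in limma (-0.36, standard error 0.16, adjusted p = 0.135). It did pass the threshold of 0.1 in limma with median-ratio size factors, at -0.58 (adjusted p = 0.0636), and in the two-sample test with q-values (q = 0.0805), in each case short of the fold threshold.

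*Lcn2* was at 14.5, 11.7 and 14.4 FPKM in WT whole liver and at 383, 662 and 516 FPKM in *Cdk1* Liv-/- whole liver, 38.5-fold higher (log2 fold change 5.19, standard error 0.21, adjusted p = 0.000172). Here neutrophil markers moved with it, since their sum was 47.8 to 76.1 FPKM in WT and 93.3, 328 and 262 FPKM in replicates 1 to 3 of *Cdk1* Liv-/- whole liver, and 8 of the 11 passed the adjusted p as higher, against 38.0% of all genes. *S100a8* and *S100a9*, the calprotectin subunits of neutrophils, had log2 fold changes of 1.63 and 1.72. In *Cdk1* Liv-/- hepatocytes *Lcn2* was at 450 to 963 FPKM, and the neutrophil markers summed to 22.0 FPKM or less. The part of neutrophils in the *Lcn2* values of either compartment was not tested. *Hp* was at 2186, 2124 and 2077 FPKM in WT whole liver and at 4222, 4503 and 4422 FPKM in *Cdk1* Liv-/- (1.04, standard error 0.08, adjusted p = 0.00122). *Hpx* was at 3306, 3211 and 3755 FPKM in WT and at 5998, 9569 and 6142 FPKM in *Cdk1* Liv-/- (1.05, standard error 0.21, adjusted p = 0.0157), and without replicate 2 of *Cdk1* Liv-/- it was at 0.83 and lost its call. Without the female library, replicate 3 of *Cdk1* Liv-/- whole liver, the 9 genes kept their calls.

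**Figure D2:**
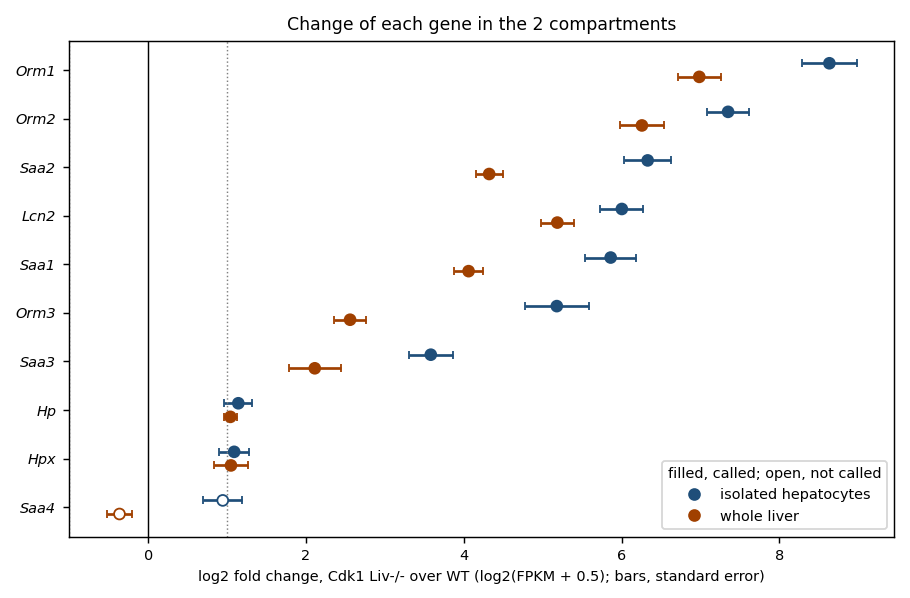
Log2 fold change of each gene, *Cdk1* Liv-/- over WT, on the log2(FPKM + 0.5) scale, in isolated hepatocytes and whole liver, with standard errors as bars and a dotted line at the threshold of 1. *Orm1* is highest in both, *Hp* and *Hpx* lie close to 1 in both, and *Saa4* is at 0.94 in hepatocytes and -0.36 in whole liver.

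Whether a gene differed between the genotypes by as much in whole liver as in hepatocytes was tested with an interaction term over the 12 libraries together. It was larger in hepatocytes than in whole liver for 6 of the 10 genes at an adjusted p of 0.1, against 2.35% of all genes in this direction. The difference in log2 fold change was 2.62 for *Orm3* (standard error 0.48, adjusted p = 0.0362), 2.01 for *Saa2* (0.37, adjusted p = 0.0360), 1.8 for *Saa1* (0.39, adjusted p = 0.0508), 1.65 for *Orm1* (0.47, adjusted p = 0.0814), 1.47 for *Saa3* (0.45, adjusted p = 0.0943) and 1.31 for *Saa4* (0.31, adjusted p = 0.0585). For the sums of the orosomucoids and of *Saa1* and *Saa2* it was 1.73 and 1.91 (adjusted p = 0.0626 and 0.0441). The other 4 did not pass, with 1.09 for *Orm2* (standard error 0.40, adjusted p = 0.137), 0.82 for *Lcn2* (0.37, adjusted p = 0.206), 0.10 for *Hp* (0.18) and 0.04 for *Hpx* (0.28). The number of calls rested on single libraries, being 1 without replicate 1 and 2 without replicate 2 of WT whole liver. *Saa2* kept its call whichever library was left out. *Orm3* lost it without replicate 1 of WT whole liver (adjusted p = 0.105), *Saa1* without replicate 1 or 2 of WT whole liver (0.124 and 0.106), and *Saa4* without any 1 of the 3 WT whole liver libraries (0.101 to 0.150) or without replicate 2 of *Cdk1* Liv-/- whole liver (0.116). *Orm1* and *Saa3* lost theirs in 9 and 10 of the 12 fits that leave out a library, with adjusted p of up to 0.182 and 0.204 there. Of all genes, 409 were called with a larger and 1303 with a smaller change in hepatocytes, and with median-ratio size factors 548 and 492, while the number of members stayed at 6.

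The interaction draws on the levels of both genotypes, and those of the *Cdk1* Liv-/- groups are given first. *Orm1*, *Orm3*, *Saa1*, *Saa2* and *Saa4* were higher in each hepatocyte library than in any whole liver library, with ratios of the means of 2.66, 6.30, 2.22, 2.85 and 2.50. These are 5 of the 10 genes, and 10.5% of all genes did not overlap in this direction. *Orm2*, *Saa3*, *Lcn2*, *Hp* and *Hpx* overlapped, with ratios of 1.43, 1.66, 1.26, 1.03 and 1.02. These ratios are a description without a test. In bulk RNA, fewer hepatocytes in a sample and less RNA per hepatocyte cannot be told apart. The sum of the 11 hepatocyte markers, most of it from *Alb*, was lower in *Cdk1* Liv-/- hepatocytes than in *Cdk1* Liv-/- whole liver, but the single markers went both ways, with 6 of 11 higher by their means in *Cdk1* Liv-/- hepatocytes, among them *Cps1* and *Tat* at ratios of 3.28 and 2.98, and 5 higher in *Cdk1* Liv-/- whole liver. The part of hepatocyte content in the interaction was not tested.

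In WT mice none of the 10 genes was called between whole liver and hepatocytes by limma, 5 had an unadjusted p under 0.05, and 0 were called by a two-sample test with q-values. *Orm2* alone passed the adjusted p, and likewise the q-value (q = 0.0694), without reaching the fold threshold. In this direction 1.42% of all genes passed the adjusted p. Both results turned on single libraries. The adjusted p of *Orm2* reached 0.301 among the alternatives in limma. Of all 17386 genes, 0 passed as higher without replicate 1 of WT hepatocytes or with the replicate block, and 2656 without replicate 3 of WT hepatocytes. *Orm2* was at 0.67 to 0.82 FPKM in whole liver against 0.30 to 0.37 in hepatocytes (log2 fold change 0.58, adjusted p = 0.0864). *Saa1*, *Saa2*, *Orm3* and *Lcn2* were also higher in each whole liver library than in any hepatocyte library, with log2 fold changes of 0.69, 0.56, 0.24 and 0.52 and adjusted p of 0.208, 0.247, 0.247 and 0.131 from limma. With *Orm2* these are 5 of 10 genes whose libraries did not overlap, against 20.7% of all genes in this direction. *Saa3* was at 0.78 and *Orm1* at 0.26 (adjusted p = 0.270 and 0.479), and *Hp*, *Hpx* and *Saa4* lay between -0.01 and 0.08. These WT differences enter the interaction, of which they are 0.78 of 1.47 for *Saa3*, 0.58 of 1.09 for *Orm2* and 0.69 of 1.8 for *Saa1*.

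The makeup of the families is given as shares of their summed FPKM. Among the orosomucoids, *Orm1* made up 71.0% to 75.3% of the summed FPKM in *Cdk1* Liv-/- hepatocytes and 60.1% to 64.5% in *Cdk1* Liv-/- whole liver, against 43.3% to 52.1% in WT whole liver. In WT hepatocytes the share ranged from 44.6% to 70%, at sums of 0.74 to 1.25 FPKM. *Orm3* was 2.41% to 5.92% of the sum in *Cdk1* Liv-/- hepatocytes and 0.563% to 1.91% in *Cdk1* Liv-/- whole liver. Among the serum amyloids, *Saa4* was 88.8% to 93.5% of the sum in WT hepatocytes and 83.6% to 87.6% in WT whole liver, but 20.3% to 34.3% and 16.9% to 31.4% in the *Cdk1* Liv-/- groups. There *Saa1* was the largest part, at 40.6% to 49.5% and 43.5% to 54.4%. The ratio of *Saa1* to *Saa2* was 2.60 to 4.06 in WT hepatocytes and 1.98 to 2.04 in *Cdk1* Liv-/- hepatocytes, and 3.18 to 3.79 against 2.42 to 2.67 in whole liver, without overlap in either compartment. The ratio of *Hpx* to *Hp* overlapped between the genotypes, at 1.56 to 1.92 and 1.46 to 2.00 in hepatocytes and 1.51 to 1.81 and 1.39 to 2.13 in whole liver. These shares and ratios are a description without a test.

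**Figure D3:**
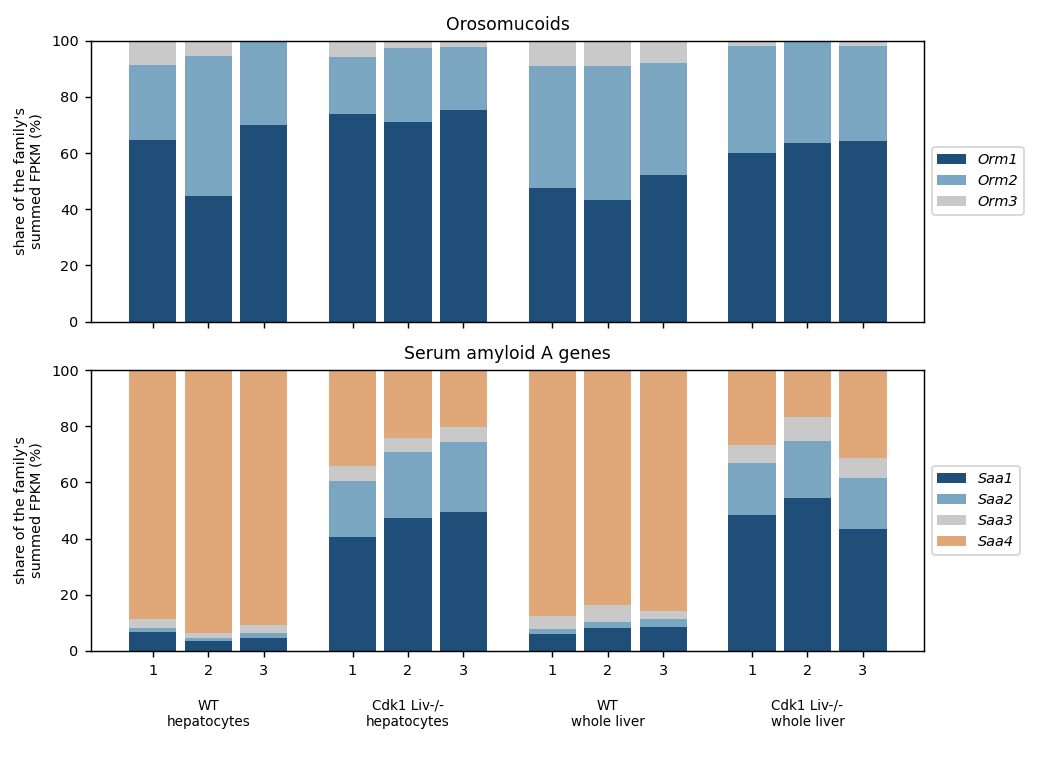
Share of each gene in the summed FPKM of its family, in percent, for the 12 libraries, with orosomucoids above and serum amyloids below. *Saa4* fills 83.6% or more of the bars of the WT libraries and 34.3% or less of those of the *Cdk1* Liv-/- libraries.

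Within each *Cdk1* Liv-/- group, 1 library was the highest for most of the genes. In hepatocytes, replicate 3 was the highest of the 3 for 8 of the 10 genes, and replicate 1 for the other two, *Orm3* and *Saa4*. In whole liver, replicate 2 was the highest for 8 of the 10 genes, the same 8, and replicate 1 again for *Orm3* and *Saa4*. Replicate 3 of the *Cdk1* Liv-/- hepatocytes held 943 FPKM of summed orosomucoids, where the lowest of its group held 410 FPKM. Replicate 2 of *Cdk1* Liv-/- whole liver held 407 FPKM, where the lowest held 202 FPKM. This library also had the largest sum of neutrophil markers (328 FPKM) and of monocyte markers (242 FPKM) of all 12, while replicate 3 of the *Cdk1* Liv-/- hepatocytes, with 21.1 and 40.5 FPKM, did not stand apart from its group in them. In the WT groups no replicate was highest for more than 6 of the 10 genes. The share of all genes that were highest in the same libraries was not counted, and the values were not scaled. Median-ratio size factors were 1.144, 1.188 and 1.159 in replicates 1 to 3 of *Cdk1* Liv-/- whole liver. In those of *Cdk1* Liv-/- hepatocytes they were 0.9434, 0.9859 and 0.9584.

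Beyond the 10 genes, other positive acute phase genes were taken from a list. Of its 22 genes, 7 passed the adjusted p as higher in *Cdk1* Liv-/- hepatocytes and 0 as lower, where 12.1% of all genes passed as higher and 6.61% as lower. In whole liver 12 passed as higher and 2 as lower, against 38.0% and 7.53% of all genes. These 2 shares hold without scaling, and with median-ratio size factors 3107 of 17386 genes passed as higher and 2844 as lower. The median log2 fold change of the list was 0.51 in hepatocytes and 0.52 in whole liver. *Hamp*, which encodes the iron hormone hepcidin, was at 0.57 to 1.14 FPKM in WT hepatocytes and 71.9 to 202 FPKM in *Cdk1* Liv-/- hepatocytes (log2 fold change 6.45, adjusted p = 0.0011), and its change in whole liver was 5.40 (adjusted p = 0.00084). Its paralogue *Hamp2* was at 6.19 and 3.40 (adjusted p = 0.00164 and 0.0169). *Cd14*, a co-receptor for lipopolysaccharide, was at 1.65 in hepatocytes (adjusted p = 0.113) and rose by 3.04 in whole liver (adjusted p = 0.000296). The metallothionein gene *Mt2* was at 2.66 in hepatocytes but its libraries overlapped and it did not pass (adjusted p = 0.142). *Lrg1*, *A2m* and *Steap4*, named here after their values were seen, were called higher in both compartments, at 2.24, 2.47 and 1.54 in hepatocytes. By contrast, the pentraxins *Crp* and *Apcs*, which are opsonins, were at -0.13 and -0.20 in hepatocytes (adjusted p = 0.726 and 0.460), and *Serpina3m*, a serine protease inhibitor, was at -0.31 in hepatocytes (adjusted p = 0.150) and fell by 0.27 in whole liver (adjusted p = 0.0119). *Itih4*, an inter-alpha-trypsin inhibitor chain, fell by 0.25 in whole liver (adjusted p = 0.0628).

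Of 12 negative acute phase genes, whose plasma products drop in inflammation, 3 passed as lower in *Cdk1* Liv-/- hepatocytes and 8 in whole liver, against 6.61% and 7.53% of all genes, and 0 passed as higher in either in limma. The two-sample test with q-values passed 5 as lower in hepatocytes and 10 in whole liver, and 1 as higher in whole liver, *Trf*, the iron carrier transferrin (log2 fold change 0.31, q = 0.0135). Of all 17386 genes this test passed 1489 as lower in hepatocytes, and 2073 as lower and 8753 as higher in whole liver. The median log2 fold change of the 12 genes was -0.45 in hepatocytes and -0.38 in whole liver. *Apoa1*, the main protein of high density lipoprotein, was at 8752 to 11332 FPKM in WT hepatocytes and 3813 to 5429 FPKM in *Cdk1* Liv-/- hepatocytes (log2 fold change -1.12, adjusted p = 0.0293), and at -0.55 in whole liver (adjusted p = 0.0205). *Ttr*, the carrier of thyroid hormone and retinol binding protein, was at -0.99 and -0.69 (adjusted p = 0.0374 and 0.0618). *Serpina6*, which encodes corticosteroid-binding globulin, was at 0.11 in hepatocytes (adjusted p = 0.773) and fell by 1.49 in whole liver (adjusted p = 0.00527). *Alb*, albumin, named here after its values were seen, was lower in each *Cdk1* Liv-/- library than in any WT library of its compartment but did not pass in limma, at -0.56 and -0.37 (adjusted p = 0.376 and 0.242). It did pass the two-sample test with q-values as lower in both compartments (q = 0.0151 and 0.00683).

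**Figure D4:**
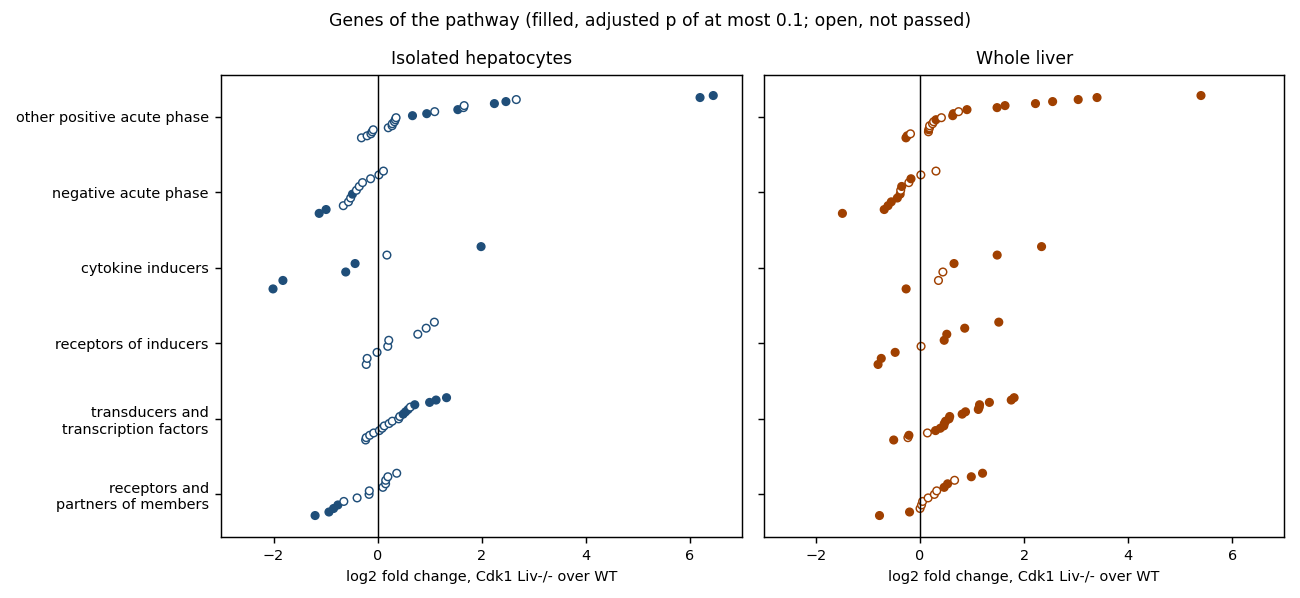
Log2 fold change, *Cdk1* Liv-/- over WT, of the tested genes of 6 lists (rows) in isolated hepatocytes and whole liver, with filled points for an adjusted p of at most 0.1. The other positive acute phase genes reach 6.45 in hepatocytes, the negative ones lie between -1.12 and 0.11 there, and 0 of the 8 receptors of inducers pass in hepatocytes.

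Among 9 cytokines that induce the response, *Osm*, *Il11* and *Il22* were below the filter on low values, and 6 were tested. *Il6* was low in each library. Its range in hepatocytes was 0.18 to 0.26 FPKM with the WT genotype and 0.01 to 0.06 FPKM in *Cdk1* Liv-/-, and the ranges in whole liver were 0.04 to 0.25 and 0.18 to 0.86 FPKM. It passed as lower in *Cdk1* Liv-/- hepatocytes (log2 fold change -0.43, adjusted p = 0.0293) and did not pass in whole liver (0.44, adjusted p = 0.287). *Lif*, a ligand of the same family, was at 0.01 FPKM in each WT hepatocyte library and 1.47 to 1.59 FPKM in *Cdk1* Liv-/- hepatocytes (1.99, adjusted p = 0.00062), and rose from 0.02 to 0.05 FPKM to 1.63 to 2.75 FPKM in whole liver (2.33, adjusted p = 0.000785). *Il1b*, the interleukin-1 beta gene, was at 3.83 to 4.78 FPKM in WT and 0.69 to 0.72 FPKM in *Cdk1* Liv-/- hepatocytes (-2.01, adjusted p = 0.00159), whereas in whole liver it rose from 0.93 to 1.70 FPKM to 2.41 to 8.0 FPKM (1.48, adjusted p = 0.038), and the difference between the compartments passed the test (adjusted p = 0.0102). *Il1a* was at -1.82 in hepatocytes (adjusted p = 0.0109) and 0.35 in whole liver (adjusted p = 0.182), and *Ctf1*, cardiotrophin-1, at -0.61 and -0.27 (adjusted p = 0.0846 and 0.0926). The 10 Kupffer cell and macrophage markers had median log2 fold changes of -1.17 in hepatocytes and 0.23 in whole liver, and 10 of 10 had an unadjusted interaction p under 0.05 in limma. For sinusoidal endothelial markers the medians were -1.45 and 0.10. The part of these cells in the cytokine values was not tested. *Tnf* was at 0.05 to 0.06 FPKM in WT and 0.10 to 0.14 FPKM in *Cdk1* Liv-/- hepatocytes, which did not overlap. Its log2 fold change of 0.18 there did not pass in limma (adjusted p = 0.169) and passed the two-sample test (q = 0.0358), and that of 0.65 in whole liver passed in both (adjusted p = 0.0456, q = 0.0366).

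None of the 8 receptors of these cytokines passed in hepatocytes in limma, where 2 had an unadjusted p under 0.05, and 0 passed in the two-sample test with q-values. In whole liver 4 of the 8 passed as higher and 3 as lower, where 38.0% of all genes passed as higher and 7.53% as lower. The count of higher receptors thus lay near the background of unscaled values. With median-ratio size factors that background was 3107 genes higher and 2844 lower of 17386, and the receptor counts given here are those without scaling. *Osmr*, the oncostatin M receptor, was at 1.51 (adjusted p = 0.00447), *Il6st*, the shared gp130 chain, at 0.86 (adjusted p = 0.00296), *Tnfrsf1a* at 0.51 (adjusted p = 0.0025) and *Il1r1* at 0.46 (adjusted p = 0.0167). *Il6ra*, the interleukin-6 receptor, was at -0.81 (adjusted p = 0.0325), *Lifr* at -0.74 (adjusted p = 0.0353) and *Il1rap* at -0.48 (adjusted p = 0.0689). Their log2 fold changes in hepatocytes were 0.77, 0.21, 0.20, 1.09, -0.22, -0.01 and -0.20 in the same order, and *Il22ra1* was at 0.93 there and 0.02 in whole liver.

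Of 19 signal transducers and transcription factors, 7 passed as higher and 0 as lower in *Cdk1* Liv-/- hepatocytes, and 15 as higher and 2 as lower in whole liver. Of all genes 12.1% passed as higher in hepatocytes and 38.0% in whole liver, and 6.61% and 7.53% passed as lower. *Socs3*, the feedback inhibitor of STAT3 signalling, rose from 1.26 to 2.01 FPKM in WT to 2.93 to 6.82 FPKM in *Cdk1* Liv-/- hepatocytes (log2 fold change 1.12, adjusted p = 0.0811) and by 1.81 in whole liver (adjusted p = 0.00118). *Junb*, an AP-1 subunit, rose by 1.32 and 1.75 (adjusted p = 0.0561 and 0.00647), and *Bcl3*, a nuclear partner of NF-kappaB, by 1.00 and 1.14 (adjusted p = 0.0292 and 0.00684). *Relb* was at 0.28 in hepatocytes (adjusted p = 0.444) and rose by 1.33 in whole liver (adjusted p = 0.00297). *Cebpa* was at 0.03 in hepatocytes (adjusted p = 0.893) and fell by 0.51 in whole liver (adjusted p = 0.00897).

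Receptors and partners through which the secreted products act passed as lower in 4 and as higher in 0 of 13 tested genes in hepatocytes, and as lower in 2 and as higher in 4 in whole liver. Of all genes 6.61% passed as lower in hepatocytes, and 7.53% as lower and 38.0% as higher in whole liver. *Hmox1*, which degrades heme, was at -0.39 in hepatocytes (adjusted p = 0.630) and rose by 0.98 in whole liver (adjusted p = 0.0386). *Cd163*, the scavenger receptor for haptoglobin bound to hemoglobin, was at -0.93 in hepatocytes and -0.78 in whole liver (adjusted p = 0.0915 and 0.0921). *Fpr1*, a formyl peptide receptor of phagocytes, fell by 1.2 in hepatocytes (adjusted p = 0.0903). Kupffer cell and macrophage markers had a median log2 fold change of -1.17 in the same libraries, and the part of these cells in the values of *Cd163* and *Fpr1* was not tested. *Tlr2*, a receptor that binds serum amyloid A, was at 0.37 in hepatocytes (adjusted p = 0.424) and rose by 1.2 in whole liver (adjusted p = 0.00601).

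Markers of other cell types also differed in level between the genotypes. In *Cdk1* Liv-/- hepatocytes the sum was 117 to 185 FPKM for 10 Kupffer cell and macrophage markers, against 178 to 590 in WT hepatocytes. It was 95.1 to 111 against 113 to 372 FPKM for 8 stellate cell and fibroblast markers, 43.1 to 67.9 against 90.2 to 251 for 7 sinusoidal endothelial markers, and 1.37 to 1.98 against 4.07 to 11.2 for 9 lymphocyte markers. The highest WT value in each was that of replicate 3, and without that library the same number of 9 members was called in hepatocytes. Of these lists, 1 of 10, 1 of 8, 6 of 7 and 4 of 9 genes passed as lower in hepatocytes, against 6.61% of all genes, and 0 passed as higher. The first 2 of these counts lay near the background. At an unadjusted p under 0.05 in limma 7, 2, 7 and 6 were lower. The median log2 fold changes were -1.17, -0.79, -1.45 and -0.83 in the same order, against 0.05 for all genes. Cholangiocyte markers rose, with 4 of 5 tested genes passing as higher, where 12.1% of all genes did, and a sum of 66.8 to 124 FPKM against 14.6 to 30.1 FPKM. Most of this sum was *Spp1*, at a mean of 92.8 of 97.0 FPKM in *Cdk1* Liv-/- and 20.1 of 21.4 FPKM in WT hepatocytes. *Krt19* did not pass (log2 fold change 0.45, adjusted p = 0.151 from limma). In *Cdk1* Liv-/- whole liver the sums were 165 to 242 FPKM against 68.9 to 84.2 FPKM for 7 monocyte markers and 758 to 994 against 415 to 471 FPKM for stellate cell and fibroblast markers. Cholangiocyte markers summed to 139 to 270 against 45.9 to 62.2 FPKM there, and 4 of 5 tested genes passed as higher, against 38.0% of all genes. Lymphocyte markers summed to 10.6 to 19.7 against 21.4 to 26.2 FPKM, and 3 of 9 passed as lower, against 7.53% of all genes. The 6 erythroid markers summed to 72.5 to 341 FPKM in WT and 19.1 to 71.4 FPKM in *Cdk1* Liv-/- hepatocytes, and overlapped in whole liver. Of the markers, *Ly6g* and *Cftr* were at 0 in some libraries, and the remainder were above 0 in all 12. The part of these cells in the levels of the acute phase genes, *Saa3* among them, was not tested. Macrophages also make *Saa3*, and marker sums do not show how much each of these cells makes. The macrophage marker sums of the genotypes overlapped in hepatocytes. Of the 10 markers, 0 passed as higher in hepatocytes, in limma or in the two-sample test with q-values. In whole liver the sums did not overlap, at 460 to 510 FPKM in WT and 548 to 723 FPKM in *Cdk1* Liv-/-. There 3 of 10 markers passed as higher in limma, against 38.0% of all genes. The two-sample test passed 5 of 10, where it passed 8753 of all 17386 genes as higher, so that both counts lay near the background.

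**Figure D5:**
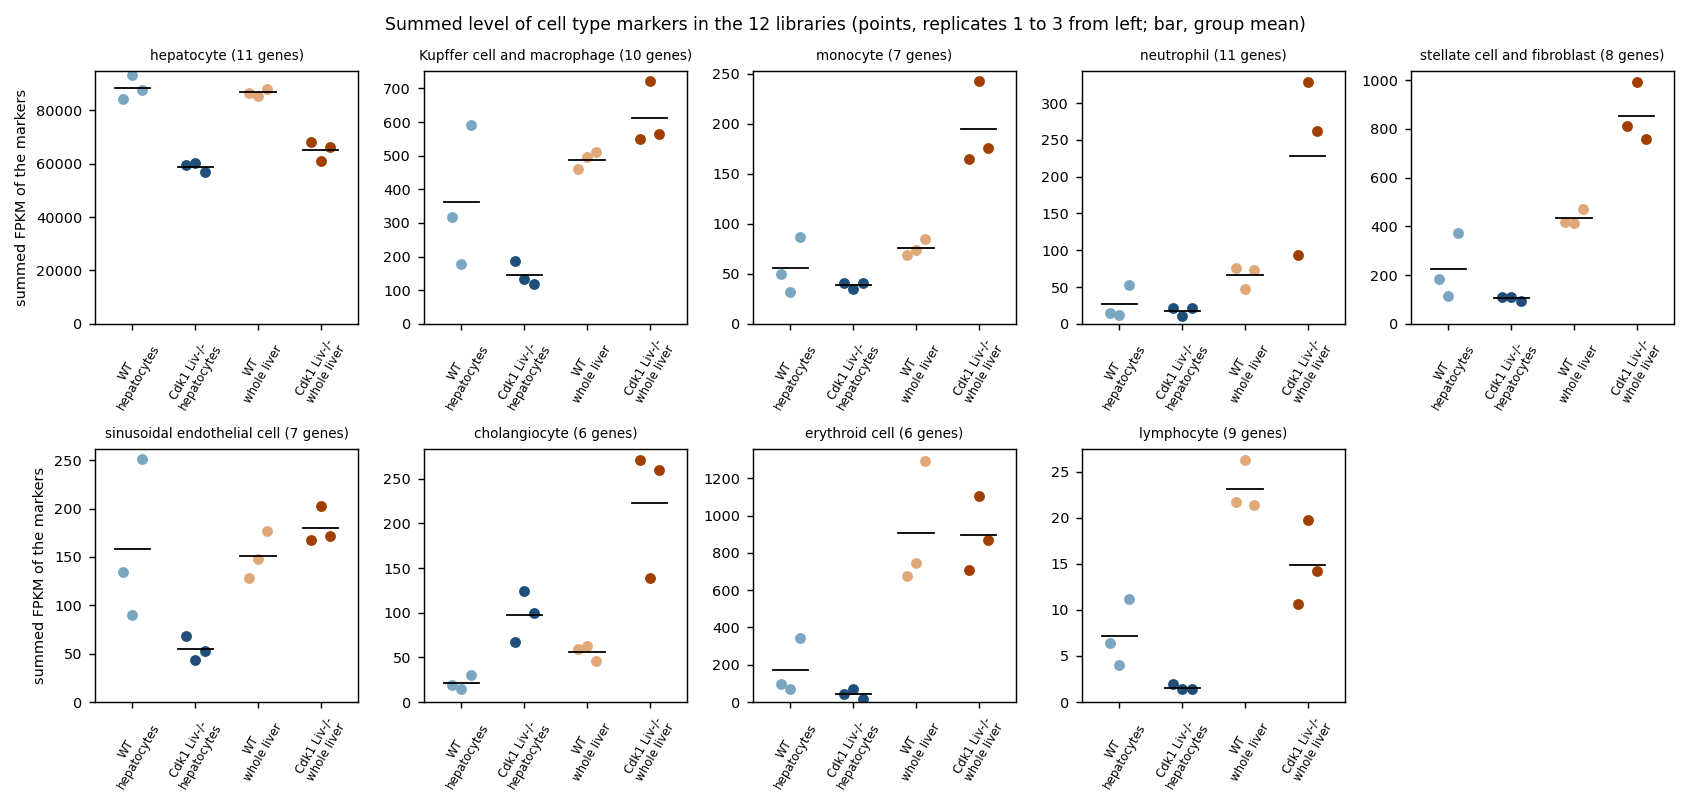
Summed FPKM of the markers of 9 cell types (panels, linear axes from 0) in the 12 libraries, with 3 points per group and a bar at the mean. Neutrophil and monocyte sums are highest in *Cdk1* Liv-/- whole liver, at up to 328 and 242 FPKM, and low in *Cdk1* Liv-/- hepatocytes, at 22.0 and 40.9 FPKM or less.

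Genes outside the list were compared with each member over the 12 libraries by the root mean square difference of log2(FPKM + 0.5) after centring, among 12272 genes with a mean of 1 FPKM or more. This is a description, since genotype dominates the spread. *Ly6d*, a lymphocyte antigen 6 family gene, was among the 3 nearest genes of 5 members (*Orm1*, *Orm2*, *Saa1*, *Saa2* and *Lcn2*), at differences of 0.50 for *Lcn2* to 1.06 for *Orm1*. It rose from a mean of 0.943 to 181 FPKM in hepatocytes and from 3.29 to 128 FPKM in whole liver. *Hamp* was among the nearest of *Orm1*, *Orm2* and *Saa2*. *Orm3* was nearest to *Wfdc21* (0.38), *Mup20* (0.50) and *Pigr* (0.52), each of which was also higher in *Cdk1* Liv-/- hepatocytes than in *Cdk1* Liv-/- whole liver, with *Wfdc21* at 225 against 34.2 FPKM. *Saa4* was nearest to *Fam13a* (0.19), whose mean went from 2.40 to 5.07 FPKM between the genotypes in hepatocytes and from 2.32 to 1.77 FPKM in whole liver. *Hp* was nearest to *Cblc* (0.13) and *Hpx* to *Map3k1* (0.14). Among the members themselves *Hp* and *Hpx* were closest (0.20), then *Saa1* and *Saa2* (0.26), while *Orm3* lay further from its paralogues *Orm1* (2.07) and *Orm2* (1.70) than from *Saa1* (0.85). This distance for *Orm3* depends on the constant of 0.5, which holds down the change of a gene at 0.05 FPKM in WT hepatocytes, at an estimated 0 to 3.8 reads per library. By the ratio of means, which is as uncertain for *Orm3*, it was 429-fold in hepatocytes against 427-fold for *Orm2* and 758-fold for *Orm1*, and in whole liver 23.2-fold against 134-fold and 214-fold.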

How the data were processed

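Polyadenylated RNA was prepared with a stranded kit and sequenced as single-end reads of 75 bp. The authors aligned to mm10 with STAR (version not given in the sources used here), quantified genes with RSEM 1.2.31 and deposited FPKM to 2 decimals, without normalization between libraries. The annotation release is not given in the sources used here. Read counts were not used, since the deposited values are FPKM, so depth was estimated from the steps of low values in transcripts of 300 to 900 bases, where 56.2% to 63.2% of genes fell within 0.1 reads of a whole number (20% by chance).

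Differences were tested with limma 3.58.1 (R 4.3.3, eBayes with trend, two-sided) on log2(FPKM + 0.5) over 17386 genes, those averaging 0.1 FPKM or more, with Benjamini-Hochberg adjustment. Genotypes were compared within a compartment, and a call needed an adjusted p no higher than 0.1 together with a change of 1 or more on the log2 scale. The interaction used the adjusted p alone. The constant of 0.5 understates the change of low genes. Alternatives were constants of 0.1 and 1, filters, 2 scalings, a replicate block, summed families, a two-sample test with q-values and each library left out.

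The members and gene lists were chosen with earlier results of these data known. The text names the 10 members, the cytokine and receptor lists, from each other list the top 3 and bottom 3 genes by change per compartment, and the 3 genes most like each member, with exceptions marked, and not every gene the rule takes is printed. *Itgam* occurs in the table on 2 rows, of which the one with the higher mean was used. Sequences come from GENCODE M21 and RefSeq GRCm38.p6.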

Additional observations from a re-analysis of the deposited data

Results flagged for a closer look

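The change between the genotypes differed between isolated hepatocytes and whole liver, by the interaction test in limma, for 6 of the 10 acute phase genes. In each it was larger in hepatocytes, against 2.35% of all genes in this direction. The differences in log2 fold change were 2.62 for *Orm3*, 2.01 for *Saa2*, 1.8 for *Saa1*, 1.65 for *Orm1*, 1.47 for *Saa3* and 1.31 for *Saa4*. Only *Saa2* passed under each alternative, with an adjusted p of at most 0.0901 in limma. The highest adjusted p over the alternatives was 0.105 for *Orm3*, 0.124 for *Saa1*, 0.182 for *Orm1* and 0.204 for *Saa3*. For *Saa4* the genotypes also moved in opposite directions, higher in 3 of 3 *Cdk1* Liv-/- hepatocyte libraries and lower in 3 of 3 *Cdk1* Liv-/- whole liver libraries than in any WT library of the same compartment, although the whole liver change (-0.36) was under the fold threshold and did not pass in limma (adjusted p = 0.135, but 0.0636 with median-ratio size factors and q = 0.0805 in the two-sample test) and that in hepatocytes (0.94) was under the fold threshold. The interaction of *Saa4* lost its call without any 1 of the 3 WT whole liver libraries (adjusted p = 0.101 to 0.150 in limma) or without replicate 2 of *Cdk1* Liv-/- whole liver (0.116). In *Cdk1* Liv-/- whole liver 8 of 11 neutrophil, 6 of 7 monocyte and 5 of 8 stellate cell markers passed as higher, against 38.0% of all genes. In *Cdk1* Liv-/- hepatocytes 0, 1 (*Ccr2*, 1.18, adjusted p = 0.0109) and 0 did, against 12.1% of all genes. The difference between the compartments passed for 5 monocyte and 3 stellate cell markers and for 0 neutrophil markers, of which 8 had an unadjusted p under 0.05 in limma. It also passed for 5 of 7 sinusoidal endothelial and 4 of 10 Kupffer cell and macrophage markers, and for 0 cholangiocyte, erythroid and lymphocyte markers. In each that passed the change was smaller in hepatocytes, as it was for 1303 of all 17386 genes (492 with median-ratio size factors). The part of these cells in the differences of the acute phase genes was not tested.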

How the results depend on the processing

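The number of genes called in hepatocytes ranged from 7 to 10 and that in whole liver from 7 to 9 over all alternatives, and the *Orm*, *Saa1* to *Saa3* and *Lcn2* calls in both compartments held in each. Only *Hp*, *Hpx* and *Saa4*, near the fold threshold, changed side. Between WT whole liver and WT hepatocytes 0 genes were called, and 1 without the fold threshold (*Orm2*). For the interaction the number ranged from 1 to 7 when a library was left out or another setting was used, and leaving out single libraries gave 1 to 6. The replicate block gave 9, 9, 0 and 4 calls, where the unblocked fit gave 9, 9, 0 and 6, and replicate numbers were not taken as pairs, because deviations of same-numbered libraries had Pearson correlations of -0.32 to 0.24 across genes. Signs reversed for uncalled values near 0 alone. In the WT comparison these were *Hp* (-0.05) and *Saa4* (-0.10) with median-ratio size factors, *Saa4* (-0.01) with equal FPKM sums, and on leaving out a library *Hpx* (-0.07 to 0.04) and *Saa4* (-0.06 to 0.08). In the interaction they were *Hpx* (-0.08 to 0.26) and *Hp* (-0.05 to 0.18) on leaving out a library. The cause was not tested. Of the values of single genes under an alternative, 605 kept their direction and side of the threshold, 36 lost a call, 5 gained one and 14 reversed. Fits without a library take the spread of a smaller group from all groups fitted. Depth limits *Orm3* most, at an estimated 0 to 3.8 reads in WT hepatocytes, and transcript levels of orosomucoids in WT in general.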
